A study of Mus musculus with 16 samples.

Results

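The expression of 8 genes that mark or build the trophoblast, the outer lineage of the early embryo that forms the placenta, was followed in mouse embryonic stem cells (ESCs) that had lost the maintenance DNA methyltransferase gene Dnmt1, alone or together with Dicer1. The members were fixed by name, with earlier results of these data known: Elf5, Cdx2, Eomes, Tfap2c, Gata3, Hand1, Krt8 and Krt18, which are 8 of the 26127 genes in the expression table. Each name matched 1 row, with Tfap2c listed under its older symbol Tcfap2c. Total RNA depleted of ribosomal RNA had been sequenced in 16 libraries: 8 from cells of wildtype genotype (WT), 4 from cells labelled as Dnmt1 knockout (Dnmt1 KO) and 4 from cells labelled as knockout of both Dicer and Dnmt1 (Dicer/Dnmt1 KO). The labels give E14, a widely used mouse ESC line, as the background of all 3 groups. The methods of the study instead describe knockout lines made from C57BL/6 ESCs with loxP-flanked Dnmt1 alleles, in which tamoxifen starts Cre recombination. They put the cells in medium with serum and LIF, with or without feeder cells. Neither source says which libraries had feeders, how long after deletion the RNA was taken, whether Dicer1 was lost before or together with Dnmt1, or how many clones stand behind a group. Every library carries a number (1 to 4 in WT, 1 and 2 in the knockouts) and a letter, A or B.

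DNA methylation is one of the barriers that keep ESCs, which descend from the inner cell mass, from turning into trophoblast. Elf5, a transcription factor of the ETS family, is the classical gate: its promoter is known to be methylated in ESCs and unmethylated in trophoblast stem cells, where Elf5 reinforces Cdx2 and Eomes in a self-sustaining circuit. Cdx2, Eomes, Tfap2c and Gata3 are transcription factors that start or maintain the trophoblast programme, Hand1 drives the differentiation of trophoblast giant cells, and Krt8 and Krt18 encode the paired keratins of simple epithelia. Methylation was not analysed here, so that nothing below says which of these promoters had lost it.

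The promoter of Elf5 is printed because Elf5 is the methylation-gated member, and that of Cdx2, its partner in the circuit, for contrast. CpG dinucleotides are the sites that Dnmt1 keeps methylated. The RefSeq promoter table of build GRCm38.p6 was matched by symbol and holds 6 of the 8 members. It gives Elf5 2 starts, 11970 bases apart on the plus strand of chromosome 2. The 250 bases before each start are written 5′ to 3′ on the strand of the gene, with every CpG in capitals.
Elf5, upstream start, chr2:103411848-103412097, plus strand: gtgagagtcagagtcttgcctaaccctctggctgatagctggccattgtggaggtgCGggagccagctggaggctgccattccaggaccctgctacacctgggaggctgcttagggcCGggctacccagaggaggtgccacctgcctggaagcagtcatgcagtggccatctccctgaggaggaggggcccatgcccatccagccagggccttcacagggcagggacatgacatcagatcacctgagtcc
Elf5, downstream start, chr2:103423818-103424067, plus strand: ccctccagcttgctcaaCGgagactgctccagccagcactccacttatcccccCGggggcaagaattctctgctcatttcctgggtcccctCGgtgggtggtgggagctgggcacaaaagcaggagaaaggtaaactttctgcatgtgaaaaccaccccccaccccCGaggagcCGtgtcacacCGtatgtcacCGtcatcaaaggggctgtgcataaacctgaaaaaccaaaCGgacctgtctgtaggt
Cdx2, chr5:147307250-147307499, minus strand: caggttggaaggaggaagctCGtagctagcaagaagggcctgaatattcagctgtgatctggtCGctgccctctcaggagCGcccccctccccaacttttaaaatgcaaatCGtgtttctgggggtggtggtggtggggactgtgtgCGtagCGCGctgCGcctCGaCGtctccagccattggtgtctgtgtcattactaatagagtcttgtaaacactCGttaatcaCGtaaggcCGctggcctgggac

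The upstream window of Elf5 held 2 CpGs, its downstream window 8 and the Cdx2 window 13. Among the 32851 promoter windows of this length in the table the median was 6, and 92.1% of them held at least 1 CG, a motif that reads the same on both strands. At least as many CpGs as in the upstream Elf5 window were found in 81.2% of all windows, against 43.0% for the downstream window and 31.5% for Cdx2. The members thus differ in how many sites for methylation lie directly before their starts. Gata3 had 19 CpGs in its window, Krt18 12, Eomes 8 and Krt8 3. Tfap2c and Hand1 have no entry. The expression table gives 1 value per gene, so that the reads of Elf5 could not be assigned to either start.

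The labels were checked first. Dnmt1 ran from 169 to 203 RPM (reads of a gene per 1000000 reads of the library) in WT numbers 1 to 3 but stood at 51.5 and 46.9 RPM in WT 4A and 4B, and ran from 18.04 to 24.8 RPM in Dnmt1 KO and from 22.5 to 24.96 RPM in Dicer/Dnmt1 KO, and Dicer1 was lowest in Dicer/Dnmt1 KO, at 12.8 to 16.6 RPM against 35.6 to 51.4 RPM in WT numbers 1 to 3 and 27.5 and 23.6 RPM in WT 4A and 4B. WT number 4 was thus the lowest of WT in both genes, and results of the members are also given without it where it bears on them. The libraries held about 31500000 to 52500000 reads, so that a gene without a read could have had up to 3 reads, or 0.0571 to 0.0954 RPM, a limit that covers counting error only. The sum of 5 Y-linked genes was 0.235 to 1.37 RPM in WT, 19.2 to 22.0 RPM in Dnmt1 KO and 14.4 to 19.2 RPM in Dicer/Dnmt1 KO. The WT and knockout libraries therefore differed in more than Dnmt1 and Dicer1, and in every comparison with WT the genotype and the origin of the line cannot be told apart. Both comparisons with WT also share the same 8 WT libraries. Libraries A and B of 1 number differed less (median SD of their log2 difference 0.25) than libraries of different numbers (0.38), and the labels do not say that they are separate cultures. The p-values measure the spread between libraries that are partly shared, so values or counts of calls with A and B averaged are given beside the results on the members and the gene lists. Because the RNA came from whole cultures, more cells that express a gene and more RNA per cell cannot be told apart.

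Per length of exon, the order of the members in WT ran from the keratins down to Elf5. Krt8 stood at 74.6 ± 12.9 RPM per kilobase of merged exon (RPKM, mean ± SD, n = 8) and Krt18 at 57.4 ± 9.62 RPKM, which overlapped within their SD. Tfap2c followed at 5.89 ± 1.69 RPKM and Eomes at 0.869 ± 0.147 RPKM, each apart from its neighbours. Cdx2 at 0.238 ± 0.101 RPKM overlapped with Hand1 at 0.117 ± 0.0493 RPKM, and Hand1 with Gata3 at 0.0567 ± 0.0433 RPKM, while Elf5 came last at 0.00461 ± 0.00539 RPKM. In the knockouts Hand1 had reached the level of Eomes, with 0.982 ± 0.160 against 0.805 ± 0.0224 RPKM in Dnmt1 KO and 0.9 ± 0.171 against 0.705 ± 0.0824 RPKM in Dicer/Dnmt1 KO (n = 4 each), and the means overlapped within their SD in both. Elf5 remained last in every group. In these cells the keratins and Tfap2c thus stood far above the factors that define the lineage.

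Whether the loss of Dnmt1 went together with higher levels of trophoblast genes was asked with a limma fit on the deposited log2 RPM, in which genes with a Benjamini-Hochberg adjusted p-value under 0.05 are called. Of the 8 members, 6 lay above 1 RPM in at least 4 libraries and were tested among 12892 such genes. Elf5 and Gata3 did not, Cdx2 passed only through its 4 Dnmt1 KO libraries, and Hand1 only through its 8 knockout libraries, so these 4 are also given from a fit of all 21545 genes with a read in any library. In that unfiltered fit all 8 members were tested. In Dnmt1 KO against WT it called 3 members, all higher (Elf5, Cdx2 and Hand1), where 28.1% of all genes were called (17.3% were higher, 10.9% lower). In Dicer/Dnmt1 KO against WT it called 5 members, all higher (Elf5, Gata3, Hand1, Tfap2c and Krt18), against 42.9% of all genes (23.8% higher, 19.0% lower). In Dicer/Dnmt1 KO against Dnmt1 KO it called 2, Tfap2c higher and Cdx2 lower, against 20.9% of all genes (9.69% higher, 11.3% lower). The median log2 change of the 8 members was 0.70, 0.715 and -0.04 in the 3 comparisons, beside 0.14, 0.18 and 0.02 over all genes tested. The split of all called genes depended on the scaling, since under quantile normalization the unfiltered fit had 2903 genes higher and 3156 lower in Dnmt1 KO, against 3723 and 2338 as deposited, and 4089 higher and 4989 lower in Dicer/Dnmt1 KO, against 5138 and 4102, with medians over all genes of -0.02 and -0.03. In the filtered fit the same scaling gave 2506 genes higher and 2907 lower in Dnmt1 KO, against 3030 and 2259. The filtered fit called 2 of the 6 members tested in Dnmt1 KO against WT, both higher (beside 41.0% of all genes, or 23.5% higher and 17.5% lower), 3 in Dicer/Dnmt1 KO against WT, all higher (61.9%, 31.9% and 30.1%), and 3 between the knockouts, 2 higher and 1 lower (36.3%, 16.9% and 19.4%). With such shares of all genes called, the number of members called says little about the members as a group, and the results lie in the individual genes.

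**Figure D1:**
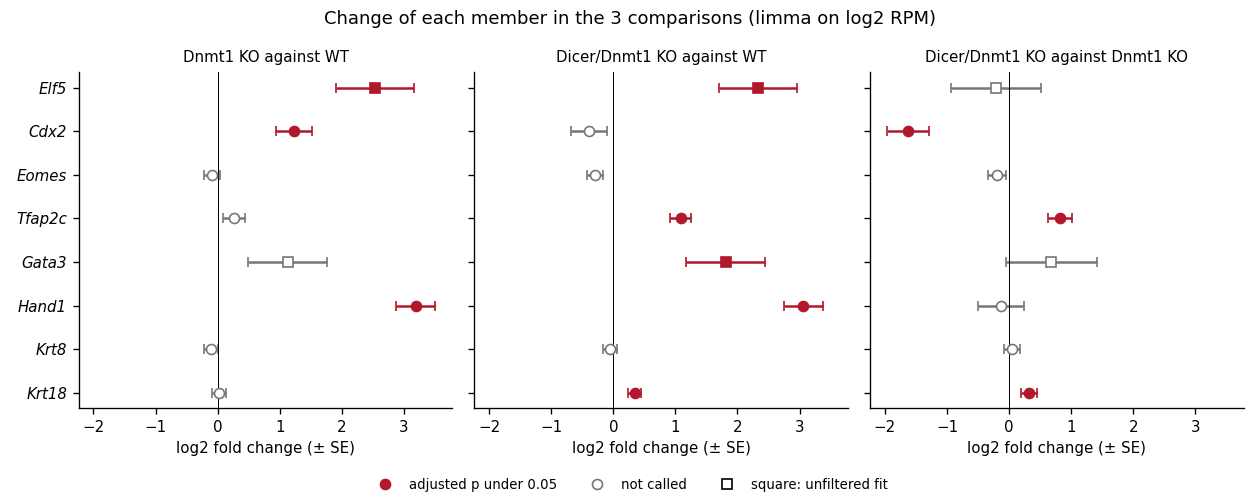
Log2 fold change of each member (x axis, ± SE) in the 3 comparisons, from limma on log2 RPM. Red symbols passed an adjusted p of 0.05, open symbols did not, and squares (Elf5 and Gata3) come from the unfiltered fit. Hand1 and Elf5 lie far to the right of 0 in both comparisons with WT and near 0 between the knockouts, whereas Cdx2 lies to the right in Dnmt1 KO and to the left of Dnmt1 KO in Dicer/Dnmt1 KO.

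Elf5, the gate of the trophoblast lineage, rose in both knockouts from next to nothing. The gene (ENSMUSG00000027186, NCBIM37 chr2:103251845-103291146, plus strand, 7 annotated transcripts, the longest with 4 exons) had 9 reads in all 8 WT libraries together: none in WT 1A, 1B and 3B, 1 each in 2A, 2B and 4A, and 3 each in 3A and 4B. The Dnmt1 KO libraries had 3 reads in 1A, 5 in 1B, 7 in 2A and 17 in 2B, and the Dicer/Dnmt1 KO libraries 11 in 1A, none in 1B, 7 in 2A and 12 in 2B. All 4 Dnmt1 KO libraries lay above all WT libraries on the RPM scale, although the lowest of them (0.0912 RPM) and the highest of WT (0.0893 RPM) both held 3 reads, whereas in Dicer/Dnmt1 KO 3 did and 1B lay at 0. On that scale the means were 0.0271 ± 0.0317 RPM in WT (SD, n = 8), 0.229 ± 0.195 RPM in Dnmt1 KO (n = 4) and 0.215 ± 0.165 RPM in Dicer/Dnmt1 KO (n = 4). An exact permutation test, two-sided, of the difference in mean RPM gave p = 0.00202 for Dnmt1 KO, the smallest that 4 against 8 libraries allow, and p = 0.0182 for Dicer/Dnmt1 KO. These are unadjusted and come from a family of 6 such tests. With A and B averaged the exact permutation p was 0.0667 in both, the smallest that 2 against 4 values allow. From the summed reads, Elf5 was 8.12-fold higher in Dnmt1 KO (95% exact interval 3.79 to 19.3, which covers counting error only) and 7.94-fold higher in Dicer/Dnmt1 KO (3.68 to 19.0). The unfiltered limma fit gave log2 changes of 2.54 (SE 0.63, adjusted p = 0.00548) and 2.32 (SE 0.63, adjusted p = 0.00615), which kept their calls with A and B averaged (adjusted p = 0.0156 and 0.0125) and lost them when the correlation of A and B was estimated (adjusted p = 0.0635 and 0.0604). The highest WT library, 4B, had the least Dnmt1 (46.9 RPM), and WT 4A, at 51.5 RPM of Dnmt1, held 1 read of Elf5. A link between the levels of Dnmt1 and Elf5 among WT libraries was not tested. Without WT number 4 the unfiltered limma changes were 2.71 (adjusted p = 0.00442) and 2.49 (adjusted p = 0.00528). Between the knockouts Elf5 could not be separated, with a counting interval of the ratio from 0.574 to 1.66 and an exact permutation p of 0.914. Even the highest library, Dnmt1 KO 2B at 0.515 RPM, stayed below 1 RPM, the level that genes had to exceed to enter the filtered fit.

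Neither neighbour of Elf5 was called higher than in WT. Ehf, an ETS factor and the neighbour on the lower side at 108410 bases, was at 0.0761, 0.114 and 0.105 RPM in WT, Dnmt1 KO and Dicer/Dnmt1 KO and was not called. Cat, which encodes catalase and lies 2860 bases beyond the end of Elf5, fell by 0.51 on the log2 scale in Dnmt1 KO (SE 0.11, adjusted p = 0.00113, limma), from a mean of 55.6 to 39.0 RPM, and stood at 50.6 RPM in Dicer/Dnmt1 KO.

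**Figure D2:**
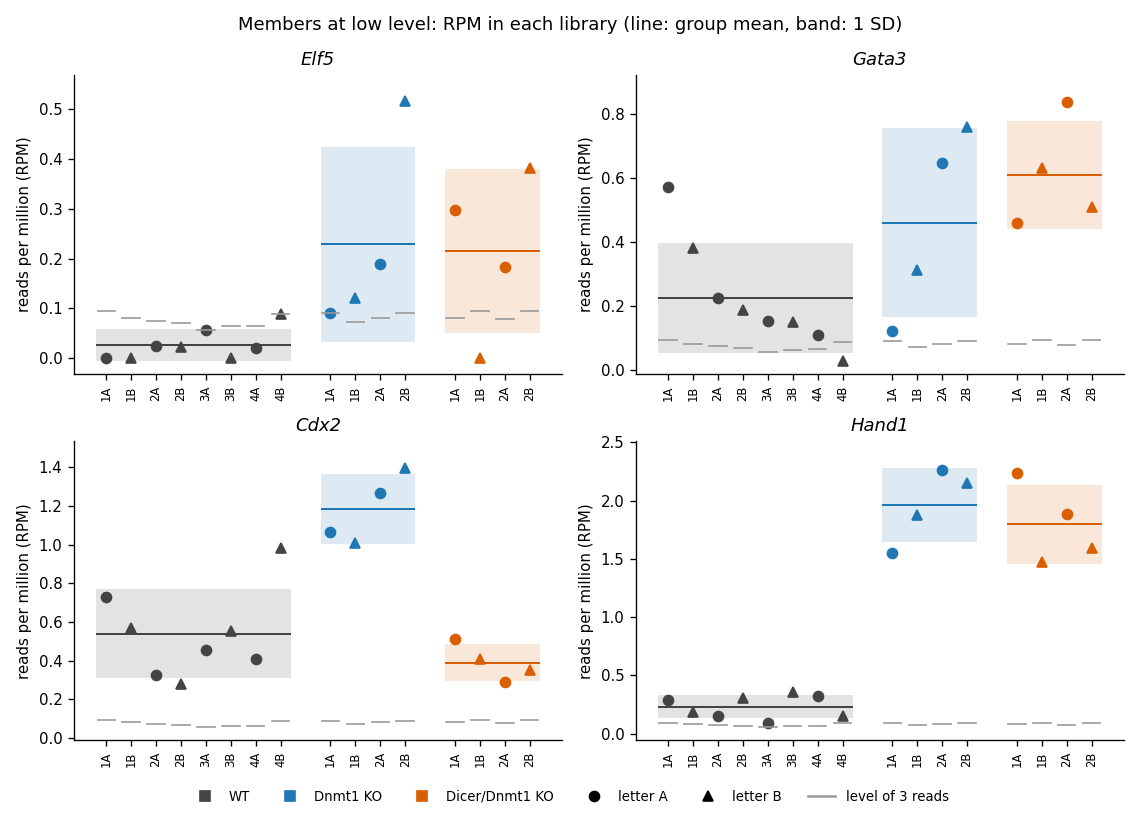
RPM (y axis, linear) of Elf5, Gata3, Cdx2 and Hand1 in each of the 16 libraries (x axis, number and letter), with the mean of each group as a line and 1 SD as a band. Grey ticks mark the level of 3 reads in each library. Hand1 separates both knockouts from WT without overlap, Cdx2 separates Dnmt1 KO from both other groups, and Elf5 in WT lies at or below the level of 3 reads in every library.

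Cdx2, the homeobox factor that specifies trophectoderm, rose in Dnmt1 KO and not in Dicer/Dnmt1 KO, and the difference between the knockouts was itself past the threshold. In WT, Cdx2 (NCBIM37 chr5:148112381-148118846, minus strand, 3 exons) had between 12 and 33 reads, with a median of 22, or 0.282 to 0.983 RPM. The Dnmt1 KO libraries held 35, 42, 47 and 46 reads in 1A, 1B, 2A and 2B, which is 1.06, 1.01, 1.27 and 1.39 RPM. The Dicer/Dnmt1 KO libraries held 19, 13, 11 and 11 reads, or 0.513, 0.409, 0.288 and 0.350 RPM. Dnmt1 KO therefore lay above every library of the other groups, although WT 4B came close at 0.983 RPM, and Dicer/Dnmt1 KO lay inside the WT range. The log2 change was 1.23 in Dnmt1 KO against WT (SE 0.30, adjusted p = 0.00286, limma) and -1.62 in Dicer/Dnmt1 KO against Dnmt1 KO (SE 0.34, adjusted p = 0.0014), whereas in Dicer/Dnmt1 KO against WT it was -0.39 (SE 0.30, adjusted p = 0.256). Since Cdx2 had entered the filtered fit through the group in which it is high, the unfiltered fit is the fairer one, and gave adjusted p-values of 0.00668 and 0.00377 for the first 2 comparisons, which became 0.0778 and 0.0804 with A and B averaged. Exact permutation tests of Cdx2, added after its values had been seen, gave p = 0.00202 in Dnmt1 KO against WT and p = 0.0286 between the knockouts, both the smallest possible, and averaging A and B gave 0.0667 and 0.333 in the same exact test, again the smallest possible. WT 4B, the nearest WT library, had the least Dnmt1 (46.9 RPM), and WT 4A, at 51.5 RPM of Dnmt1, had Cdx2 at 0.411 RPM. A link between the levels of Dnmt1 and Cdx2 among WT libraries was not tested. Without WT number 4 the unfiltered limma change in Dnmt1 KO was 1.35 (adjusted p = 0.00329). By summed reads the ratio was 2.27 (counting interval 1.83 to 2.82) in Dnmt1 KO against WT and 0.331 (0.239 to 0.453) in Dicer/Dnmt1 KO against Dnmt1 KO. The Dicer/Dnmt1 KO value against WT depended on the scaling: quantile normalization moved it to -1.60 (adjusted p = 0.000417). Pdx1, the neighbouring homeobox gene 22797 bases away, was at 0.116, 0.166 and 0.0529 RPM in the 3 groups and was not called.

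Eomes, the T-box factor that works beside Cdx2 and Elf5 in trophoblast stem cells and also in mesendoderm, was not called in any comparison. WT ranged from 3.00 to 4.55 RPM with a median of 3.49, the Dnmt1 KO libraries stood at 3.41, 3.44, 3.29 and 3.24 RPM, and the Dicer/Dnmt1 KO libraries at 3.02, 2.96, 2.46 and 3.27 RPM. Dnmt1 KO lay within the WT range, with a log2 change of -0.09 (SE 0.13, adjusted p = 0.582, limma). Dicer/Dnmt1 KO was at -0.29 against WT (SE 0.13, adjusted p = 0.0533), next to the threshold, and was called lower once WT number 4 was left out (-0.36, adjusted p = 0.0265). The gene (NCBIM37 chr9:118387330-118395250, plus strand, 6 exons) lies 20143 bases before Golga4, a Golgi tether that rose in Dicer/Dnmt1 KO by 0.56 (SE 0.09, adjusted p = 5.21e-05) while Eomes did not. Cmc1, on the lower side at 328132 bases, was at -1.15 in Dicer/Dnmt1 KO against WT (SE 0.24, adjusted p = 0.000494, limma). Markers of mesendoderm and early mesoderm, the other cells in which Eomes is at home, summed to 1.88 to 5.11 RPM in WT, 2.29 to 2.68 RPM in Dnmt1 KO and 1.39 to 2.13 RPM in Dicer/Dnmt1 KO, with 1 of the 10 (Msgn1) without a read in any library, and their part in the level of Eomes was not tested.

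Tfap2c, the AP-2 factor of both trophoblast and germ cells, was the member that set Dicer/Dnmt1 KO apart. The 8 WT libraries spread from 13.4 to 30.3 RPM with a median of 20.2, highest in number 2 (29.5 and 30.3 RPM) and lowest in number 4 (15.1 and 13.4 RPM). The Dnmt1 KO libraries were nearly identical, at 25.3, 25.2, 24.7 and 25.2 RPM, and the Dicer/Dnmt1 KO libraries stood at 43.7, 47.5, 43.2 and 42.6 RPM, above every other library. The log2 change was 1.08 against WT (SE 0.17, adjusted p = 3.72e-05, limma, and 0.00662 with A and B averaged) and 0.82 against Dnmt1 KO (SE 0.20, adjusted p = 0.00385, but 0.0869 with A and B averaged). In Dnmt1 KO against WT it was 0.26 (SE 0.17, adjusted p = 0.229), and this value rested on which WT numbers were taken, with 0.58 (adjusted p = 0.000532) against numbers 3 and 4 and -0.06 (adjusted p = 0.688) against numbers 1 and 2. Tfap2c (NCBIM37 chr2:172375093-172384122, plus strand, 7 exons) has Bmp7 as its neighbour on the higher side at 309391 bases, which fell by 1.12 on the log2 scale in Dnmt1 KO (adjusted p = 2.42e-07) and fell by 0.83 in Dicer/Dnmt1 KO (adjusted p = 3.48e-06). The nearer neighbour, 1700029J11Rik at 75262 bases, was called higher in Dicer/Dnmt1 KO against WT (1.32, SE 0.47, adjusted p = 0.0316, unfiltered limma fit). Its mean there was only 0.0869 RPM. The summed level of 8 germ cell markers, the other cells in which Tfap2c acts, was also highest in Dicer/Dnmt1 KO, at 114 to 118 RPM against 80.5 to 108 RPM in WT and 74.8 to 84.7 RPM in Dnmt1 KO, and its part in the level of Tfap2c was not tested. Of these 8 markers, limma called 4 higher and 2 lower in Dicer/Dnmt1 KO against WT.

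**Figure D3:**
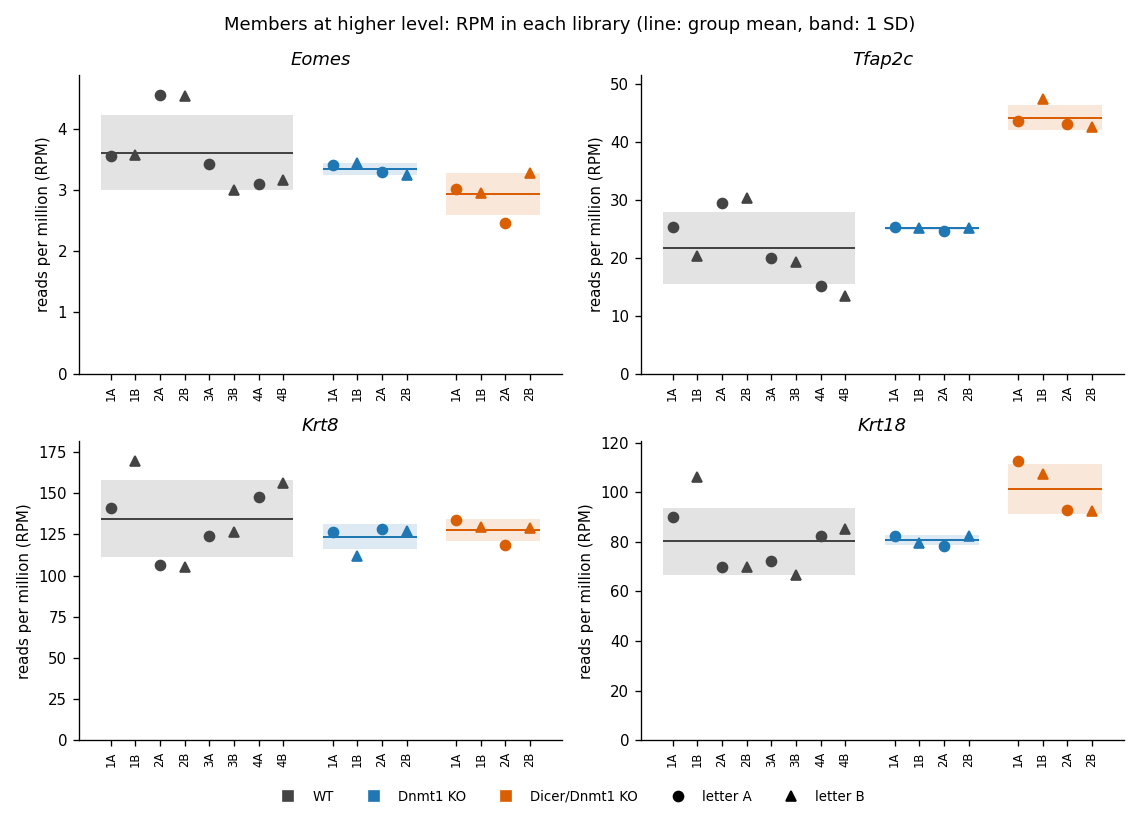
RPM (y axis, linear, from 0) of Eomes, Tfap2c, Krt8 and Krt18 in each library (x axis, number and letter), with the group mean as a line and 1 SD as a band. The 4 Dicer/Dnmt1 KO libraries of Tfap2c sit between 42.6 and 47.5 RPM, above every other library, while for Krt8 both knockouts lie inside the WT range.

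Gata3, the zinc-finger factor that acts in parallel to Cdx2 in trophectoderm, was low throughout and only in Dicer/Dnmt1 KO passed a test. The WT libraries had 18, 14, 9, 8, 8, 7, 5 and 1 reads in the order from 1A to 4B, the Dnmt1 KO libraries 4, 13, 24 and 25, and the Dicer/Dnmt1 KO libraries 17, 20, 32 and 16. WT thus ran from 18 reads down to a single one, and both knockouts overlapped with it. The means were 0.225 ± 0.172 RPM in WT (n = 8), 0.460 ± 0.294 RPM in Dnmt1 KO (n = 4) and 0.608 ± 0.168 RPM in Dicer/Dnmt1 KO (n = 4). The exact permutation p, two-sided and unadjusted, was 0.101 for Dnmt1 KO against WT, 0.00606 for Dicer/Dnmt1 KO against WT and 0.4 between the knockouts. The unfiltered limma fit gave a log2 change of 1.81 in Dicer/Dnmt1 KO against WT (SE 0.63, adjusted p = 0.0291), which lost the call with A and B averaged (0.118), without WT number 4 (1.28, adjusted p = 0.059) and without Dicer/Dnmt1 KO 1B (0.0641) or 2A (0.0816). In Dnmt1 KO it was 1.13 (SE 0.63, adjusted p = 0.21), but 2.00 (adjusted p = 0.0272) against WT numbers 3 and 4 only. Gata3 (NCBIM37 chr2:9778705-9811661, minus strand, 6 exons) shares its span with 3 annotated genes, 2 of them on the opposite strand, none of which had more than 3 reads in any library. Its neighbours Taf3 (24518 bases away) and Celf2 (2776357 bases) were also called higher in Dicer/Dnmt1 KO against WT. Their log2 changes were 0.795 (adjusted p = 0.0112) and 0.46 (adjusted p = 0.0241, filtered limma fit). The difference between the knockouts was not past the threshold, so that Gata3 is not shown to depend on Dicer1.

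Hand1, a bHLH factor that drives differentiation to trophoblast giant cells and is also used in mesoderm, showed the widest separation of all members. WT libraries had 5 to 17 reads with a median of 8, or 0.0952 to 0.362 RPM. The Dnmt1 KO libraries had 51, 78, 84 and 71 reads, which is 1.55, 1.88, 2.27 and 2.15 RPM, and the Dicer/Dnmt1 KO libraries 83, 47, 72 and 50 reads, which is 2.24, 1.48, 1.88 and 1.59 RPM. All 8 knockout libraries lay above all 8 WT libraries, with no WT library above 0.362 RPM and no knockout library below 1.48 RPM. The log2 change was 3.19 in Dnmt1 KO (SE 0.32, adjusted p = 4.95e-07, limma) and 3.06 in Dicer/Dnmt1 KO (SE 0.32, adjusted p = 3.37e-07), with 2.03e-06 and 1.52e-06 in the unfiltered fit and 0.000246 and 0.000191 when A and B were averaged there. By summed reads Hand1 was 8.42-fold (counting interval 6.53 to 10.98) and 7.80-fold (6.02 to 10.2) higher than in WT. The 2 knockouts could not be separated (log2 change -0.13, SE 0.37, adjusted p = 0.807, and a counting interval of the ratio from 0.778 to 1.10). Hand1 (NCBIM37 chr11:57642207-57646320, minus strand, 2 exons) lies 18488 bases from Sap30l, a corepressor subunit that was not called in Dnmt1 KO and fell by 0.37 (SE 0.11, adjusted p = 0.00816) in Dicer/Dnmt1 KO.

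Krt8 and Krt18 lie 23874 bases apart on chromosome 15 (NCBIM37 chr15:101827142-101834773, minus strand, and chr15:101858647-101862457, plus strand) and their proteins pair one to one, yet only Krt18 was called. Krt8 ran from 105 to 170 RPM in WT with a median of 134, and the knockout libraries fell inside that range, at 127, 112, 128 and 127 RPM in Dnmt1 KO and at 134, 129, 119 and 129 RPM in Dicer/Dnmt1 KO. Its log2 changes were -0.11 (SE 0.11, adjusted p = 0.466, limma), -0.06 (SE 0.11, adjusted p = 0.658) and 0.05 (SE 0.13, adjusted p = 0.796). Krt18 ran from 66.7 to 106 RPM in WT with a median of 77.3, stood at 82.3, 79.5, 78.5 and 82.4 RPM in Dnmt1 KO and at 113, 107, 92.9 and 92.4 RPM in Dicer/Dnmt1 KO. Only the 2 libraries of Dicer/Dnmt1 KO number 1 exceeded the WT range. Krt18 was higher in Dicer/Dnmt1 KO by 0.35 against WT (SE 0.11, adjusted p = 0.00964) and by 0.32 against Dnmt1 KO (SE 0.12, adjusted p = 0.0486), and with A and B averaged neither was called (adjusted p = 0.105 and 0.275). The second also lost its call when 1 library was left out in 6 of 8 cases, with an adjusted p of up to 0.138. Both keratins have processed copies elsewhere in the genome. A stretch of chromosome 7 inside Nlrp4e (chr7:24142113-24143830) matched the 1805 bases of the Krt8 transcript over 1734 bases at 97.9% identity, and a stretch of chromosome 13 (chr13:118246579-118247933) matched Krt18 over 1385 of 1400 bases at 90.5%. The authors discarded alignments of low mapping quality, and how many keratin reads this removed cannot be read from the deposited values, so that levels of Krt8 in particular are uncertain.

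The other genes of the trophoblast programme were taken from lists made with earlier results of these data known. In the list of 18 further genes of the trophoblast stem cell network, 15 were tested in the filtered fit. Against WT, 5 of them were called higher and 2 lower in Dnmt1 KO, with a median log2 change of 0.07 beside 0.04 over all genes tested. Ddah1 was at 0.84 (SE 0.08) and Id2, an inhibitor of bHLH factors, at 0.67 (SE 0.10), against -0.70 (SE 0.16) for Sox15 and -0.67 (SE 0.12) for Sox2. Against the same WT libraries 5 genes were called higher and 3 lower in Dicer/Dnmt1 KO, with a median of 0.16 beside 0.02. Sox21 was at 1.14 (SE 0.22), and Bmp4, the signal that can push ESCs towards trophoblast, and Spry4, a feedback inhibitor of FGF signalling, were at -0.86 each (SE 0.21 and 0.11). Between the knockouts 4 were higher and 5 lower (median 0.07 beside -0.01), among them Sox21 (1.31, adjusted p = 0.000798) and Bmp4 (-1.16, adjusted p = 0.0012). Tead4, the factor upstream of Cdx2 and Gata3 in trophectoderm, was at -0.22, -0.07 and 0.15 and was not called, and Tfap2a, Duox2 and Rhox4b lay below the filter. With A and B averaged the counts of higher and lower calls in this list became 3 and 2, 4 and 2, and 1 and 2 in the 3 comparisons.

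Genes of differentiated trophoblast were mostly low, and all but 1 of those called against WT were higher in the knockout. The list holds 20 genes, of which 16 had a read somewhere and 6 passed the filter. In the unfiltered fit Dnmt1 KO had 7 of them called higher than WT and 1 lower, with a median of 0.63 beside 0.14 over all genes, and Dicer/Dnmt1 KO had 6 higher and 1 lower, with a median of 0.82 beside 0.18. Between the knockouts none was called by limma. When A and B were averaged, 6 higher and 1 lower were left in the first comparison, 5 higher and none lower in the second, and none between the knockouts. Of the 6 genes above the filter, Plet1 and Dlx3 were not called in any comparison. Peg10, an imprinted gene derived from a retrotransposon and needed for the placenta, went from 203 ± 61.2 RPM in WT to 674.6 ± 103 RPM in Dnmt1 KO and 532.5 ± 21.6 RPM in Dicer/Dnmt1 KO, so that it made up most of the summed level of this list. Gcm1, the factor of the labyrinth, rose from 0.160 ± 0.0861 to 0.934 ± 0.434 RPM in Dnmt1 KO (2.73, SE 0.55, adjusted p = 0.00124) and stood at 0.369 ± 0.198 RPM in Dicer/Dnmt1 KO (1.34, SE 0.55, adjusted p = 0.0594). Prl2c2, a proliferin of giant cells from a family of close copies between which reads may be split, had 0 to 5 reads in WT, 7 to 14 in Dnmt1 KO and 2 to 11 in Dicer/Dnmt1 KO, with log2 changes of 3.38 (SE 0.43) and 2.49 (SE 0.43). Pparg, a nuclear receptor needed in the placenta, had 0 to 5, 4 to 9 and 7 to 25 reads, with log2 changes of 2.00 and 3.18 (SE 0.52 each). Ascl2, an imprinted bHLH factor of the spongiotrophoblast, was at 1.45 (SE 0.28, adjusted p = 0.000533) and 0.83 (SE 0.28, adjusted p = 0.0171, and 0.083 with A and B averaged) in the filtered fit. No WT library of Ascl2 exceeded 0.854 RPM, so it passed that filter only through knockout libraries, in which it is high. The gene called lower, named after its values had been seen, was Ovol2, at -0.69 and -0.47 (SE 0.12 each). Of this list, Prl3d1, Prl3b1, Tpbpa and Ctsq had no read in any of the 16 libraries. Other placental genes of the list had a few reads. The libraries of WT, Dnmt1 KO and Dicer/Dnmt1 KO together held 4, 7 and 14 of Prl8a9, 10, 2 and 10 of Psg17, and 0, 3 and 5 of Cts7.

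**Figure D4:**
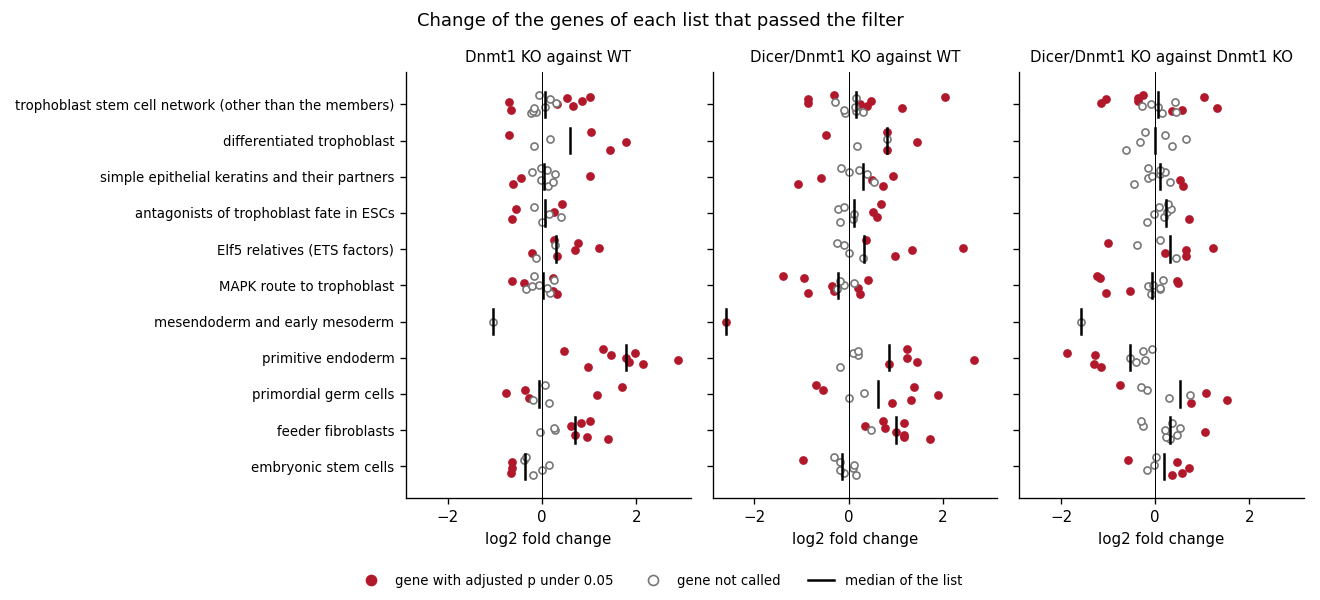
Log2 fold change (x axis) of every gene of each list (rows) that passed the filter, in the 3 comparisons, with red symbols for adjusted p under 0.05 and a black bar at the median of the list. A gene in 2 lists is drawn in both. The trophoblast lists scatter to both sides of 0 in the comparisons with WT, while all 9 primitive endoderm markers lie to the right in Dnmt1 KO.

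Of 12 simple epithelial keratins and their partners, 10 were tested. Dnmt1 KO had 1 called higher than WT and 2 lower (median 0.045 beside 0.04), Dicer/Dnmt1 KO had 3 higher and 2 lower (0.30 beside 0.02), and between the knockouts 2 were higher (0.11 beside -0.01). Plec, the linker of keratin filaments to junctions, was at 1.01 and 0.94 (SE 0.24 each) in the knockouts, Krt19 at -0.62 (adjusted p = 0.0367, and 0.189 with A and B averaged) and -1.07 (SE 0.23 each) and the desmosomal Pkp2 at -0.44 and -0.59 (SE 0.08 each). Krt7, which pairs with Krt18 in trophoblast, was at 0.73 in Dicer/Dnmt1 KO against WT (SE 0.13, adjusted p = 9.43e-05). With A and B averaged, 1 higher and 1 lower call were left for Dnmt1 KO against WT, 2 of each for Dicer/Dnmt1 KO, and none between the knockouts. The genes of this list thus went in different directions against WT.

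The ETS relatives of Elf5 include factors that were called where Elf5 stood at a few reads. Of 10 listed, 8 were tested, of which Dnmt1 KO had 5 higher and 1 lower than WT (median 0.30 beside 0.04), Dicer/Dnmt1 KO had 4 higher (0.33 beside 0.02), and between the knockouts 4 were higher and 1 was lower (0.32 beside -0.01). Averaged over A and B, 3 were higher and none lower in each comparison with WT, and between the knockouts 1 higher and 1 lower. Elf4 went from 2.04 ± 0.695 RPM in WT to 4.56 ± 0.843 RPM in Dnmt1 KO and 10.6 ± 1.64 RPM in Dicer/Dnmt1 KO, with log2 changes of 1.21 (SE 0.22, adjusted p = 0.000307) and 2.44 (SE 0.22, adjusted p = 6.99e-08) against WT. Elf3, the epithelial member of the subfamily, went from 10.9 ± 1.75 to 17.6 ± 2.48 and 27.3 ± 2.04 RPM (0.69 and 1.34, SE 0.12 each), and Elf1 was at 0.33 (adjusted p = 0.0323, and 0.215 with A and B averaged) and 0.98 (SE 0.12 each). Etv4, a target of FGF signalling, was at 0.76 (SE 0.13) in Dnmt1 KO against WT and at -1.004 (SE 0.15, adjusted p = 7.68e-05) between the knockouts.

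The MAPK route, through which Ras activity can turn ESCs towards trophoblast, was read from 12 genes, all tested. Dnmt1 KO had 3 called higher than WT and 2 lower (median 0.02 beside 0.04), Dicer/Dnmt1 KO 3 higher and 5 lower (-0.22 beside 0.02) and between the knockouts 2 higher and 4 lower (-0.06 beside -0.01). The feedback inhibitors Spry2 (-1.39, SE 0.09), Dusp6 (-0.95, SE 0.08) and Spry4 stood out as lower in Dicer/Dnmt1 KO against WT. With A and B averaged the lower calls were 1, 3 and 4 in the 3 comparisons and no gene of this list was called higher. Fgf4, the ligand that trophoblast stem cells depend on and that ESCs secrete, went from 123 ± 15.2 RPM in WT to 78.4 ± 5.59 RPM in Dnmt1 KO (-0.64, SE 0.09, adjusted p = 2.22e-05) and stood at 107 ± 5.09 RPM in Dicer/Dnmt1 KO. Of 8 factors that oppose trophoblast fate in ESCs, Dnmt1 KO had 2 higher and 2 lower than WT (median 0.07 beside 0.04), Dicer/Dnmt1 KO had 3 higher (0.11 beside 0.02) and between the knockouts 1 was higher (0.23 beside -0.01). Averaging A and B left 1 lower and none higher in Dnmt1 KO, 2 higher in Dicer/Dnmt1 KO, and 1 higher between the knockouts. Pou5f1, whose loss turns ESCs into trophoblast, was not called, at 356 ± 67.6, 349.5 ± 30.4 and 307.5 ± 13.3 RPM. Nanog fell in Dnmt1 KO, by 0.64 (SE 0.11, adjusted p = 0.000226), and Nr0b1, another pluripotency factor, was at 0.42 (adjusted p = 0.0058, and 0.104 with A and B averaged) and 0.68 (SE 0.11 each).

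Markers of other cell types also differed between the groups and are given beside the members. The 9 primitive endoderm markers summed to 163 to 230 RPM in WT, 293 to 368 RPM in Dnmt1 KO and 254 to 304 RPM in Dicer/Dnmt1 KO. All 9 were called higher in Dnmt1 KO against WT and 5 in Dicer/Dnmt1 KO against WT, and 4 were lower between the knockouts, Gata6 among them (1.73 ± 0.747, 7.22 ± 1.69 and 2.90 ± 0.233 RPM). The averages of A and B left 7, 3 and 2 of these calls, and Gata6 then kept the call in Dnmt1 KO against WT (adjusted p = 0.00311) but not in the other 2 comparisons (adjusted p = 0.0708 and 0.0686). The 12 feeder fibroblast genes summed to 57.7 to 96.6, 129 to 149 and 123 to 207 RPM, with 6 and 8 of the 9 tested called higher in the knockouts against WT and 1 between them (4, 6 and 1 when A and B were averaged), and no gene of either list lacked reads in any group. Hand1 is used in mesenchyme as well, and neither the part of endoderm-like cells nor that of feeders in the levels of Hand1, Elf5, Cdx2, Gata3, Krt8 or Krt18 was tested.

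**Figure D5:**
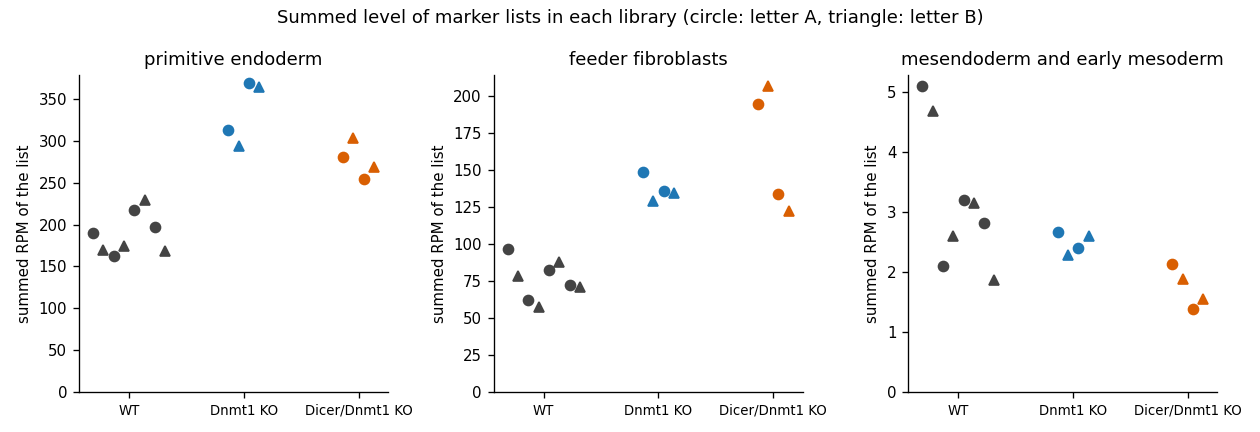
Summed RPM (y axis, linear, from 0) of the markers of primitive endoderm, feeder fibroblasts and mesendoderm in each library, by group, with circles for letter A and triangles for letter B. For primitive endoderm and feeders every knockout library lies above every WT library, while the mesendoderm sums stay between 1.39 and 5.11 RPM. Most of the primitive endoderm sum in WT comes from Lamb1 and Col4a1.

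Other genes followed individual members over the 16 libraries, which share depth, groups and WT numbers, so that the coefficients are descriptions without a p-value. Among 10930 protein-coding genes of sufficient level, the closest to Hand1 were Rtkn (Pearson r = 0.97), Slc23a2 (0.96) and Gm17672 (0.96), and the closest to Tfap2c were Iqgap1, BC032203 and Zcchc2 (0.98 each). Cdx2 was followed by Slc7a7, D19Bwg1357e and Ccne1 (0.89, 0.89 and 0.88), of which Slc7a7 shared its course with 4.96, 5.86 and 4.72 on the log2 RPM scale in WT, Dnmt1 KO and Dicer/Dnmt1 KO. Krt18 was followed by Cd24a and Cldn3 (0.87 and 0.85), which encode surface and tight-junction proteins of epithelia, and Krt8 by Anapc10, Scand1 and Pigy (0.84, 0.83 and 0.83). Eomes had the loosest companions, Ercc6, Tor1aip2 and Ankrd26 (0.81, 0.80 and 0.78).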

How the data were processed

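Total RNA libraries were sequenced as stranded paired ends. Per the submitters' processing notes, reads were trimmed with Trim Galore 0.3.5 and aligned with TopHat2 2.0.11 to NCBIM37, and per the methods alignments of low mapping quality were dropped. The authors deposited log2 RPM per gene, made in SeqMonk, in which a gene without reads is written as 0.9 of a read. Whole reads were recovered from 100% of the values in each library (within 0.01 of a read, or within 1e-05 of the value above 1000 reads). Of 51 value columns, the 16 of these libraries were used and 35 were not used. Genes that exceeded a log2 RPM of 0 in 4 or more libraries were fitted with limma 3.58.1 in R 4.3.3 (variance trend, 3 group means, Benjamini-Hochberg adjusted p under 0.05), a choice made for the deposited log2 unit. The count test named in the methods was not run on the recovered reads, which entered an alternative limma fit with weights. Single low genes were tested by exact permutation over all arrangements with numpy 2.4.6, and copies were sought with BLAST 2.17.0. The fit was also run on simulated libraries that were drawn independently of each other. That run lacked the likeness of A and B, so it does not give the error rate of the fit on these libraries. The members and lists were chosen with earlier results of these data known. Up to 6 called genes of a list with the largest change were named per comparison. Tead4, Tfap2a, Duox2, Rhox4b, Pou5f1 and Ovol2 fall outside this rule and were chosen after their values were seen. Plet1, Dlx3, Prl3d1, Prl3b1, Tpbpa, Ctsq and Msgn1 were likewise named after their values were seen, as were Prl8a9, Psg17, Cts7, Kdr and Mixl1. Alternatives covered replicates, scaling, filters, weights, transcript length and the replicate block. Some genes that the naming rules select are not reported here.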

Additional observations from a re-analysis of the deposited data

Results flagged for a closer look

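In 24 sets of a member and a group with enough libraries for Dixon's test, 2 had a library far from the others, and chance flags about 1 in 20 such sets. Tfap2c in Dnmt1 KO 2A was at 4.62 log2 RPM, below the other libraries of its group at 4.65 to 4.66, with a gap over range of 0.833 against a critical value of 0.829. Krt8 in Dnmt1 KO 1B was at 6.81 log2 RPM, below the others at 6.985 to 7.004 (gap over range 0.903). Tfap2c spread by an SD of 0.016 on the log2 scale in that group, against 0.425 in WT.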

How the results depend on the processing

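Over the settings other than leaving out 1 library, 340 changes of single members kept their direction and side of the threshold, 36 lost the call, 9 gained it and 14 changed sign; the cause was not tested. Hand1 against WT and Tfap2c in Dicer/Dnmt1 KO against WT were called in every setting. The 2 members called in Dnmt1 KO against WT became 1 with the A and B correlation estimated, with letter A or letter B only, and under quantile normalization. The 3 called in Dicer/Dnmt1 KO against WT became 5 under quantile normalization and 5 without the filter. The 3 between the knockouts became 1 with A and B averaged, with the correlation estimated or with a minimum change of 2-fold, and 0 with letter A or letter B only. Averaging A and B left differences in mean RPM of 0.202 and 0.188 for Elf5 against WT and 0.383 for Gata3 in Dicer/Dnmt1 KO, with the smallest exact permutation p that is possible, 0.0667.

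No reversed value was called. In Dnmt1 KO against WT, Eomes was at 0.079 with WT numbers 3 and 4, Tfap2c at -0.056 and Krt18 at -0.035 with WT numbers 1 and 2, and Krt18 at -0.024 after median centring. In Dicer/Dnmt1 KO against WT, Krt8 was at 0.006 without WT number 4, 0.054 under quantile normalization, 0.025 scaled to listed genes and 0.10 with the length trend removed. Between the knockouts, Elf5 was at 0.83, Hand1 at 0.13 and Krt8 at -0.018 with letter A only, and Hand1 at 0.008 with the length trend removed. Leaving out 1 library gave 2 members in Dnmt1 KO, 3 to 4 in Dicer/Dnmt1 KO and 2 to 3 between the knockouts, with Krt18 in Dnmt1 KO from -0.013 to 0.083 and Elf5 between the knockouts from -0.65 to 0.60. Depth limits Elf5 and Gata3, which rest on a few reads per library.

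Libraries with the same number in different groups did not deviate together (correlations from -0.418 to 0.469, median -0.06 over 24 pairs), so the numbers do not pair them. With the replicate block, 6541, 7828 and 6690 genes were called in the 3 comparisons against 5289, 7985 and 4682. The knockouts carry numbers 1 and 2 only, so with the block the changes against WT rested on WT numbers 1 and 2. WT libraries with other numbers did not enter these changes. With the block, Gata3 in Dicer/Dnmt1 KO lost its call (0.94, adjusted p = 0.239), Eomes gained one (-0.47, adjusted p = 0.00405), and in Dnmt1 KO Tfap2c (-0.056) and Krt18 (-0.035) changed sign without a call. Limma against WT numbers 1 and 2 only, without the block, gave the same changes for these members. An effect of the block thus cannot be told apart from the choice of WT libraries. The block changed no other call of a member.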

Other observations

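Germ cell regulators, part of the setting in which Tfap2c is also known, differed between the knockouts. Of 8 markers, all tested, Dnmt1 KO had 2 called higher and 3 lower than WT (median log2 change -0.06 beside 0.04 over all genes), Dicer/Dnmt1 KO 4 higher and 2 lower (0.62 beside 0.02), and between the knockouts 3 were higher and 1 was lower (0.52 beside -0.01). Averaging A and B left 2 higher and none lower in Dnmt1 KO, 4 higher and 2 lower in Dicer/Dnmt1 KO, and 2 higher and 1 lower between the knockouts. Dazl, an RNA-binding protein of germ cells, was at 1.69 (SE 0.24, adjusted p = 2.41e-05, limma) and 1.39 (SE 0.24) against WT, and Nanos3, which protects germ cells from death, at 1.16 and 1.91 (SE 0.28 each). Prdm14, a germ cell and pluripotency regulator, was at -0.20 in Dnmt1 KO (adjusted p = 0.406) and at 1.33 in Dicer/Dnmt1 KO (SE 0.18, adjusted p = 8.7e-06). The 2 called lower in Dicer/Dnmt1 KO against WT were Ddx4 (-0.68, SE 0.10, adjusted p = 2.39e-05, limma) and Dnd1 (-0.535, SE 0.13, adjusted p = 0.00143). Ddx4 was also lower between the knockouts (-0.76, SE 0.12, adjusted p = 0.000118).

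Of 8 ESC markers, none was called higher in either knockout and, compared with WT, Dnmt1 KO had 3 lower and Dicer/Dnmt1 KO had 1 lower, while between the knockouts 4 were higher and 1 was lower by limma. Averaging A and B left the calls against WT at 3 and 1 lower, but between the knockouts only Nanog, higher in Dicer/Dnmt1 KO (adjusted p = 0.0407 when averaged). The medians of the 8 were -0.36, -0.14 and 0.19. Among mesendoderm markers Fgf8 was the only 1 of 10 above the filter, at -1.03 (adjusted p = 0.143) and -2.61 (adjusted p = 0.000544) against WT. No knockout library of Fgf8 exceeded 0.64 RPM, so only WT libraries, where it is high, took it past the filter. Relative to WT, the unfiltered fit of 9 of these markers called 2 up and 1 down for Dnmt1 KO. For Dicer/Dnmt1 KO it called 1 up and 3 down. Averaging A and B left 1 up and 1 down, then none up and 2 down. Mean RPM in WT, Dnmt1 KO and Dicer/Dnmt1 KO was 0.180, 0.460 and 0.415 for Mixl1 and 0.274, 0.720 and 0.439 for Kdr. T, the brachyury factor, had 20 to 59 reads in WT, 7 to 13 in Dnmt1 KO and at most 5 in Dicer/Dnmt1 KO, and fell by 4.03 on the log2 scale in Dicer/Dnmt1 KO (unfiltered fit, adjusted p = 2.93e-06).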
